A study of Homo sapiens with 7 samples.

Results

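HDLM-2, a Hodgkin lymphoma (HL) cell line, was compared with the other 6 HL lines of the series, L-540, L-428, L-1236, KM-H2, SUP-HD1 and U-HO1. It supplied 1 of the 7 arrays, and each line had 1 array, so that no difference between lines has a replicate check and no test was possible. All 7 lines are established cultures labelled as HL cell lines, and no treatment, genotype or time is given for any of them. The sample title spells the line HDLM-2 while its cell line field spells it HDML-2, and the title is followed here. The arrays came from 2 laboratories, the line that each of them processed is not given in the sources used here, and a difference between lines therefore cannot be told apart from one between laboratories.

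Each array measured RNA from a whole culture with 54675 probe sets, groups of short probes that together report 1 transcript. Levels are log2 values, so that a difference of 1 is 2-fold and a difference of 2 is 4-fold. A gene with several probe sets was represented by the one with the highest mean over the 7 lines. In RNA from a whole culture, a gene active in few cells and a gene weakly active in all of them cannot be told apart. Levels of the other 6 lines are given in the order in which the lines were just named, or as their range with the median.

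The malignant cells of classical HL, the Hodgkin/Reed-Sternberg (HRS) cells, derive mostly from germinal centre B-cells that have lost much of their B-cell programme, and HDLM-2 and L-540 are usually described as lines of T-cell origin. HRS cells are known for constant activity of NFkB and of the JAK-STAT pathway, in which cytokine receptors activate JAK kinases, these phosphorylate STAT transcription factors, and SOCS proteins and phosphatases switch the signal off. Gain of the short arm of chromosome 9 around JAK2 and the immune checkpoint ligand genes CD274 and PDCD1LG2 is a known alteration of HL. HRS cells also shape their surroundings through chemokines such as CCL17 and through ligands of the TNF family.

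Background was taken on each array as the 95th percentile over 107 olfactory receptor probe sets, since lymphoid cells do not use these receptors. Of 19775 genes with a probe set of their own, 14495 were above background in at least 1 line, and 10554 were so in HDLM-2, against 8609 to 11636 in the other 6 lines. The background level was 4.86 in HDLM-2, against 4.49 to 5.59 in the others, with L-1236 at the top. The level of 18S rRNA was 5.86 in HDLM-2, against 5.23 to 11.12, and the difference between 3' and 5' probe sets of ACTB was 0.54, against 0.06 to 2.11, with U-HO1 highest in both measures. In place of a replicate error, the difference between HDLM-2 and the mean of the other 6 varied with an SD of 0.55 between probe sets of the same gene (7283 genes), a spread that can also hold differences between transcripts.

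HDLM-2 had the highest level of all 7 lines, by at least 1, for 291 genes, which is 2.01% of the 14495. It had the lowest level by at least 1 for 96 genes, or 0.662%. The same counts for the other lines were 219 to 517 on the high side and 86 to 1036 on the low side, with L-1236 at the top of both. Measured against the mean of the other 6, HDLM-2 was at least 2 higher for 586 genes (4.04%) and at least 2 lower for 253 genes (1.75%). Without a minimum gap it was the highest line for 1774 genes (12.2%) and the lowest for 1635 genes (11.3%), and the median difference over all 14495 genes was -0.0033. The count of 96 rested on which lines stood beside HDLM-2, since it was 178 without L-1236 and 155 without L-540.

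All 291 genes highest in HDLM-2 were above background there, and 82 of them were above background in no other line. A gene counted only because HDLM-2 lifted it above background had to differ, so these counts describe the array and support nothing further. Of the 291 genes, 111 had 2 or more probe sets above background, and at 90 of these HDLM-2 was highest at every one. Of the 96 low genes, 54 had 2 or more and 21 were lowest at every one. HDLM-2 itself was below background for 66 of the 96, while all the other 6 lines were above background for 63. For genes below background on one side, the fold difference is a bound, with values below background raised to the background of their array and each such fold written as at least.

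The genes that stood farthest above the other lines belonged to unrelated families. CLDN14, a claudin of tight junctions, stood at 11.32 in HDLM-2, against 5.03, 4.02, 4.54, 4.31, 4.79 and 4.37 in the other 6 lines, a gap of 6.29 to L-540. TDO2, the liver enzyme that opens the ring of tryptophan, stood at 8.79 in HDLM-2, against 2.95, 3.20, 2.76, 2.76, 2.88 and 2.55 in the other 6 lines. No other line was above background for TDO2, and HDLM-2 was at least 15.9-fold higher. LAG3, an inhibitory receptor of activated T- and NK-cells that binds MHC class II, stood at 9.13 in HDLM-2, against 3.99, 3.58, 3.21, 3.55, 3.35 and 3.96 in the other 6 lines, and was at least 20.2-fold higher. PMCH, the precursor of melanin-concentrating hormone, had a level of 9.73 in HDLM-2, against 4.44, 4.48, 3.63, 3.82, 5.10 and 3.73 in the other 6 lines. For all 4 genes the other 6 lines lay close together near background and HDLM-2 stood alone.

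CDH1, which encodes the epithelial adhesion protein E-cadherin, stood at 8.78 in HDLM-2, against 2.87, 4.77, 3.73, 2.83, 3.15 and 2.55 in the other 6 lines, and S100A4, a calcium-binding protein linked to cell motility, at 11.04 in HDLM-2, against 6.99, 4.71, 6.30, 7.29, 3.92 and 5.95 in the other 6 lines. The other genes among the 20 with the widest gaps were ADGB, a globin, at 7.79 in HDLM-2, against 2.58 to 3.42 (median 2.71) in the other 6 lines, and BEND5, a BEN-domain protein, at 10.32 in HDLM-2, against 2.87 to 6.08 (median 3.58) in the other 6 lines. PIMREG, a mitotic regulator, stood at 8.82 in HDLM-2, against 3.73 to 4.61 (median 4.26) in the other 6 lines. Genes of the germ line were present with ZP2, a protein of the egg coat, at 7.96 in HDLM-2, against 3.0 to 4.14 (median 3.33) in the other 6 lines, and SPESP1, a sperm protein, at 6.64 in HDLM-2, against 2.38 to 3.08 (median 2.58) in the other 6 lines. Transport and trafficking were represented by SLC35F3, a thiamine transporter, at 10.65 in HDLM-2, against 2.91 to 6.87 (median 3.54) in the other 6 lines, and by RAB31, a small GTPase, at 7.02 in HDLM-2, against 2.97 to 3.91 (median 3.31) in the other 6 lines. GPR158, an orphan receptor, stood at 10.58 in HDLM-2, against 2.64 to 7.30 (median 3.69) in the other 6 lines. GALNT11, an enzyme of O-glycosylation, APOLD1, VLDLR, IRX3, ANXA13 and DENND2D completed the 20, with gaps of 3.07 to 3.57 above the nearest line.

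**Figure D1:**
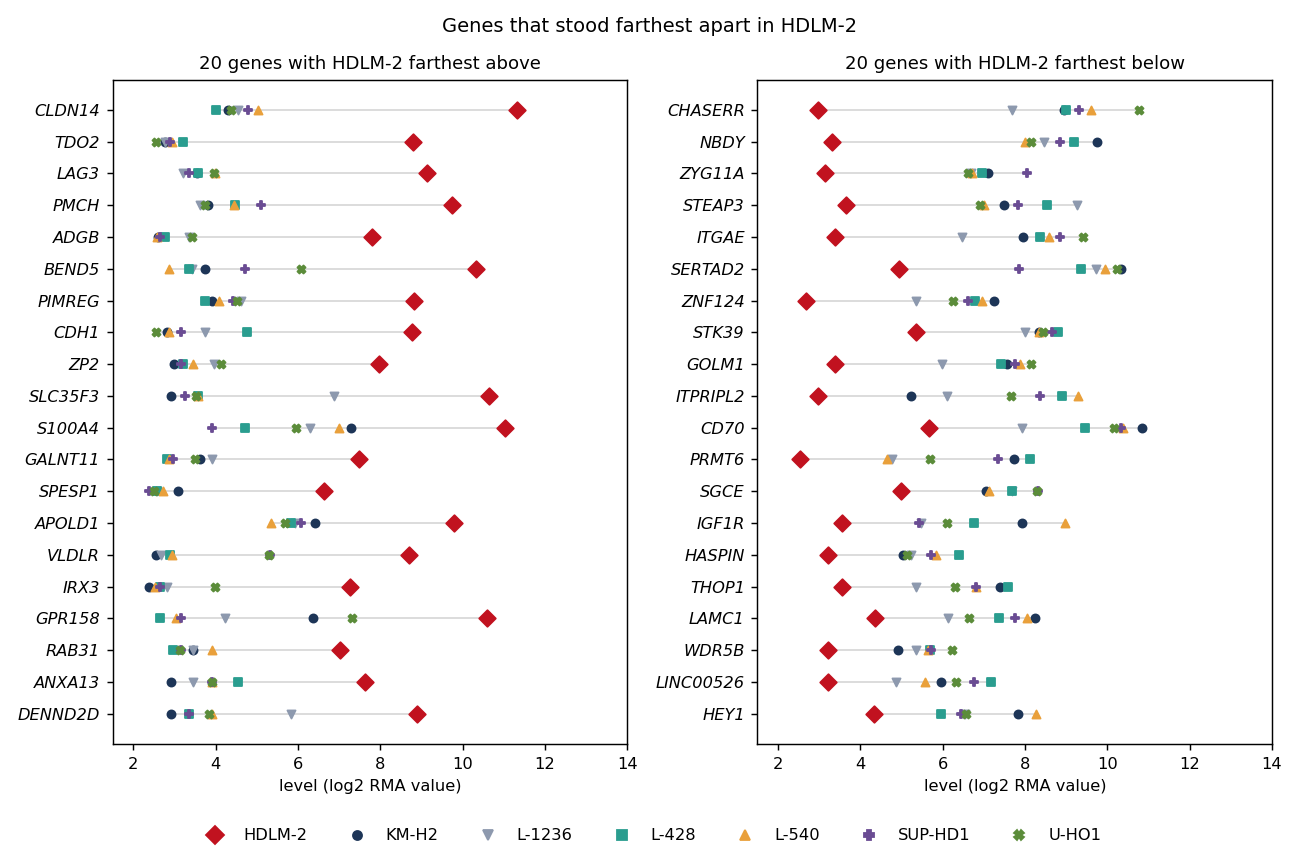
Levels on the log2 scale (horizontal axes) of the 20 genes with HDLM-2 farthest above the other lines and of the 20 with HDLM-2 farthest below, 1 point for each of the 7 lines. HDLM-2, the red diamond, stands clear of all 6 others in every row, with the widest gaps of 6.29 at CLDN14 and 4.71 at CHASERR.

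The genes that stood farthest below the other lines included several whose signal was clear in all the others. CHASERR, a long noncoding RNA next to CHD2, stood at 2.97 in HDLM-2, against 9.60, 8.99, 7.68, 8.94, 9.31 and 10.78 in the other 6 lines, and HDLM-2 was at least 20.5-fold lower. NBDY, which encodes a small protein of RNA decapping, stood at 3.31 in HDLM-2, against 7.99, 9.20, 8.45, 9.75, 8.84 and 8.14 in the other 6 lines, at least 14.6-fold lower. ITGAE, the integrin chain CD103 by which T-cells hold on to epithelium, stood at 3.39 in HDLM-2, against 8.59, 8.37, 6.46, 7.94, 8.84 and 9.40 in the other 6 lines. HASPIN, a histone H3 kinase gene that lies within ITGAE, stood at 3.21 in HDLM-2, against 5.03 to 6.40 (median 5.48) in the other 6 lines. HASPIN was above background in 5 of the other lines, and HDLM-2 was at least 1.69-fold lower. HDLM-2 was below background for all 4 genes.

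CD70, the TNF-family ligand of CD27, was above background in HDLM-2 and yet lowest there, at 5.67 in HDLM-2, against 10.37, 9.46, 7.92, 10.83, 10.32 and 10.16 in the other 6 lines, or 18-fold below their mean. STEAP3, a ferric reductase of iron uptake, stood at 3.66 in HDLM-2, against 6.90 to 9.26 (median 7.66) in the other 6 lines. IGF1R, the receptor of insulin-like growth factor, stood at 3.56 in HDLM-2, against 5.42 to 8.97 (median 6.44) in the other 6 lines, and GOLM1, a Golgi membrane protein, at 3.39 in HDLM-2, against 5.99 to 8.14 (median 7.67) in the other 6 lines. LAMC1, a laminin chain, stood at 4.36 in HDLM-2, against 6.13 to 8.24 (median 7.57) in the other 6 lines. STK39, a kinase of ion transport, had 5.34 in HDLM-2 and a narrow range of 8.01 to 8.81 in the other lines. HEY1, a target gene of Notch signalling, stood at 4.33 in HDLM-2, against 5.96 to 8.27 (median 6.56) in the other 6 lines. ZYG11A, SERTAD2, ZNF124, ITPRIPL2, PRMT6, SGCE, THOP1, WDR5B and LINC00526 completed the 20 lowest, with gaps of 1.65 to 3.48 below the nearest line.

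The label of HDLM-2 was checked against marker genes. All 6 of 6 markers of HRS cells (TNFRSF8, FUT4, FSCN1, CCL17, TRAF1 and JUNB) were above background, against 5 or 6 of 6 in every other line. Of 9 measured T-cell markers, 3 (CD247, CD2 and CD5) were above background in HDLM-2, against 6 in L-540 and 1 to 3 in the remaining lines, while CD3D, CD3E and CD3G were not. Of 7 measured B-cell markers, PAX5, EBF1 and CD22 were above background and MS4A1, CD79A, CD79B and POU2AF1 were not. The counts were 2 of 5 for myeloid, NK-cell and epithelial markers and 1 of 5 for fibroblast markers.

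CD2, an adhesion receptor of T- and NK-cells, stood at 8.95 in HDLM-2, against 7.28, 4.29, 4.86, 2.67, 4.58 and 3.49 in the other 6 lines, with HDLM-2 and L-540 above the rest. CD247, the zeta chain of the T-cell receptor complex, stood at 9.81 in HDLM-2, against 9.90, 3.28, 4.74, 3.82, 3.35 and 3.82 in the other 6 lines, so that HDLM-2 and L-540 were level and far above the others. A second CD247 probe set put HDLM-2 lowest, at a difference of -0.81. PRF1, the pore-forming protein of cytotoxic granules, stood at 11.08 in HDLM-2, against 11.34, 4.92, 6.19, 4.23, 4.01 and 5.07 in the other 6 lines, again with L-540 beside HDLM-2. The granule protease gene GZMB separated these lines, at 4.75 in HDLM-2, against 12.01, 4.54, 3.90, 3.91, 3.73 and 2.94 in the other 6 lines. GZMM, another granzyme, was above background only in HDLM-2, at 5.81 in HDLM-2, against 3.55 to 4.29 (median 3.92) in the other 6 lines.

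CD3E, part of the T-cell receptor complex, was below background in HDLM-2, at 4.06 in HDLM-2, against 4.71, 3.90, 4.26, 3.99, 4.36 and 3.63 in the other 6 lines. The coreceptor gene CD4 stood at 5.78 in HDLM-2, against 7.30, 4.81, 5.87, 8.46, 4.10 and 6.43 in the other 6 lines, within the range of the others. CD8A, below background in HDLM-2, stood at 3.56 in HDLM-2, against 3.99, 4.29, 4.71, 3.36, 5.68 and 6.08 in the other 6 lines. GATA3, the master regulator of type 2 helper T-cells, was high in all 7 lines, at 10.30 in HDLM-2, against 8.26, 11.23, 10.59, 10.09, 9.46 and 10.76 in the other 6 lines. Among 18 genes of the T-cell receptor and T-cell surface above background in some line, HDLM-2 was at least 2 above the mean at 3 (CD247, CD2 and SIT1), beside 4.04% of all genes, and the median difference was -0.29. Among 16 T-cell transcription factors, MAF at 7.52 in HDLM-2, against 2.80 to 7.64 (median 3.27) in the other 6 lines and TBX21 at 6.67 in HDLM-2, against 3.28 to 6.11 (median 4.94) in the other 6 lines were on the high side, and LEF1 at 3.39 in HDLM-2, against 3.20 to 10.12 (median 7.25) in the other 6 lines and IKZF2 at 2.36 in HDLM-2, against 2.76 to 7.75 (median 5.15) in the other 6 lines on the low side. LEF1 acts in early T-cells and TBX21 in type 1 helper T-cells, and the list had a median of -0.48.

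B-cell genes were mixed. PAX5, the factor that commits cells to the B lineage, stood at 5.74 in HDLM-2, against 5.68, 4.6, 7.81, 4.86, 7.80 and 8.18 in the other 6 lines, close to background in HDLM-2. CD79A, a signalling chain of the B-cell receptor, was below background in HDLM-2, at 4.43 in HDLM-2, against 5.09, 4.54, 5.48, 3.99, 5.28 and 5.34 in the other 6 lines, and POU2AF1, a coactivator of immunoglobulin genes, was so too, at 3.48 in HDLM-2, against 2.80, 3.20, 6.81, 3.36, 9.39 and 4.59 in the other 6 lines. BCL11A, a repressor needed for B-cell development, was below background in HDLM-2 and above it in 5 other lines, at 3.21 in HDLM-2, against 2.41, 7.92, 7.56, 9.44, 7.33 and 9.70 in the other 6 lines. SPIB, an ETS factor of B-cells, was on the other side, at 8.74 in HDLM-2, against 4.22 to 8.07 (median 7.29) in the other 6 lines. The 15 B-cell transcription factors had a median of -0.36 and the 11 B-cell receptor and surface genes one of -0.01.

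MZB1, a chaperone of antibody secretion in plasma cells and marginal zone B-cells, stood alone in HDLM-2, at 10.02 in HDLM-2, against 6.95, 5.78, 6.89, 4.38, 4.92 and 4.89 in the other 6 lines. RGS13, a germinal centre gene, was at the bottom of the range with 2.48, against 2.48 to 9.64 in the others, and 9 genes of plasma cells and germinal centres had a median of 0.11. The myeloid list of 10 genes had a median of -0.41, and its widest difference, ITGAM at 7.13 in HDLM-2, against 3.66 to 8.22 (median 4.10) in the other 6 lines, had a second probe set with a difference of -0.78. PTPRC, the leukocyte phosphatase CD45, was below background in HDLM-2, at 2.97 in HDLM-2, against 9.57, 4.97, 7.73, 6.97, 8.81 and 2.61 in the other 6 lines, and SATB1, a chromatin organizer of T-cells, was highest there, at 11.76 in HDLM-2, against 4.92 to 11.12 (median 8.54) in the other 6 lines.

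**Figure D2:**
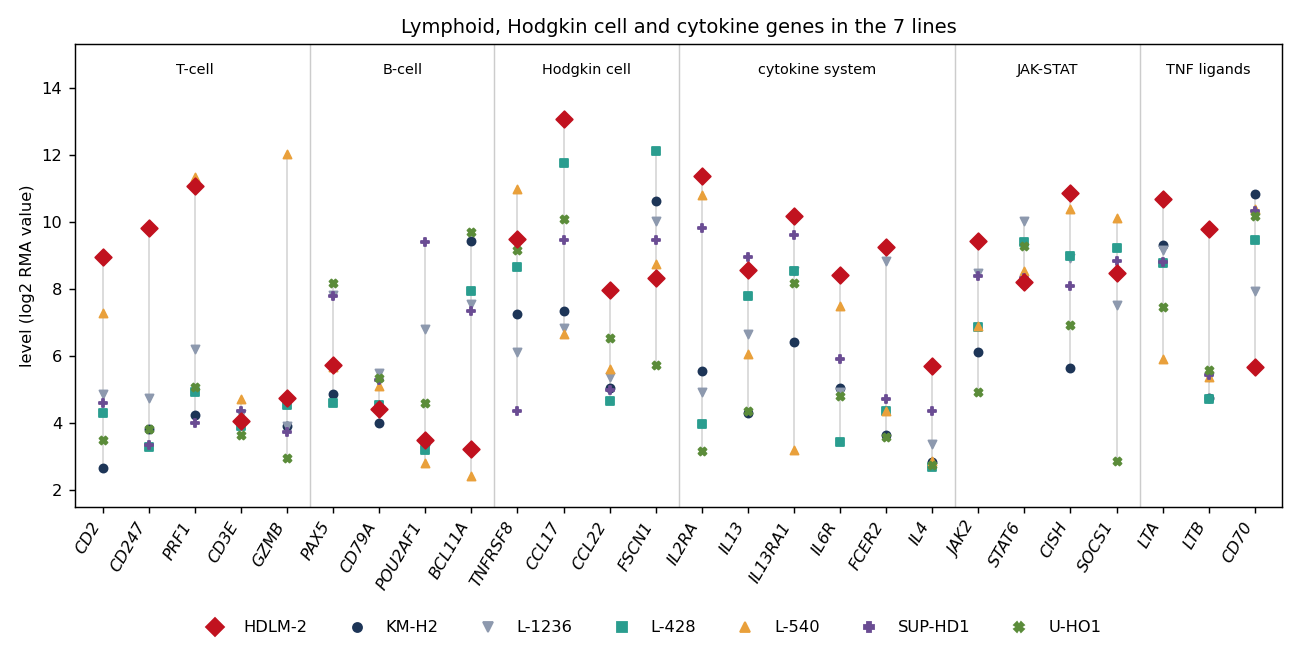
Levels on the log2 scale (vertical axis) of lymphoid, HRS-cell, cytokine, JAK-STAT and TNF ligand genes, 1 point for each of the 7 lines. HDLM-2 and L-540 stand together at CD247 and PRF1, and with SUP-HD1 (9.80) at IL2RA. HDLM-2 alone is high at the probe set shown for LTB (9.79) and it is lowest at CD70 (5.67).

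Cytokine receptors that signal through JAK kinases differed among themselves, with IL2RA, IL13RA1 and IL6R highest in HDLM-2 and IL4R and IL5RA not. IL2RA, the high-affinity chain of the interleukin-2 receptor, stood at 11.35 in HDLM-2, against 10.80, 3.96, 4.93, 5.56, 9.80 and 3.17 in the other 6 lines, and HDLM-2, L-540 and SUP-HD1 stood clearly above the rest. IL13RA1, a chain of the interleukin-13 receptor, stood at 10.16 in HDLM-2, against 3.20, 8.54, 8.53, 6.41, 9.59 and 8.16 in the other 6 lines. HDLM-2 was highest at 1 of the 4 IL13RA1 probe sets and the next below the top at the other 3. IL6R, the interleukin-6 receptor, stood at 8.41 in HDLM-2, against 3.43 to 7.5 (median 4.97) in the other 6 lines. Of 10 genes of the common gamma chain family above background in some line, 3 were at least 2 above the mean of the others, beside 4.04% of all genes, none was at least 2 below it, and the median difference was 1.30. Set against the mean of all 7 lines, the median of this list was 1.285 in L-540, 1.115 in HDLM-2 and 0.69 in SUP-HD1, and negative in the rest.

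The ligands were on the high side in part. IL13, which HRS cells use to stimulate themselves, stood at 8.56 in HDLM-2, against 6.05, 7.78, 6.66, 4.31, 8.94 and 4.37 in the other 6 lines, highest in SUP-HD1, HDLM-2 and L-428. IL4, its type 2 relative, was above background in HDLM-2 alone, at 5.71 in HDLM-2, against 2.87, 2.70, 3.38, 2.83, 4.36 and 2.74 in the other 6 lines, a low level at least 1.89-fold over the others. IL5 was below background in HDLM-2, at 2.97 in HDLM-2, against 3.11, 7.18, 3.71, 3.36, 2.81 and 2.51 in the other 6 lines, and IL9 was not analysed here. IL6 stood at 8.51 in HDLM-2, against 3.66, 6.87, 8.94, 8.68, 8.60 and 6.02 in the other 6 lines. IL26, a cytokine of T-cells, was high in HDLM-2, L-540 and SUP-HD1, at 8.37 in HDLM-2, against 10.70, 2.58, 2.58, 2.91, 9.39 and 2.36 in the other 6 lines. The receptor gene IL4R had 7.59 in HDLM-2, against 7.80, 7.30, 8.35, 7.92, 7.40 and 8.63 in the other 6 lines, inside the range of the others, whereas IL5RA was at the bottom, with 3.73, against 3.73 to 8.19. Over 13 genes of type 2 cytokines and their receptors the median was -0.15, over 17 genes of the interleukin-6, 10 and 12 families it was 0.55, and over 9 of the interleukin-1 and 18 families it was 0.22. Set against the mean of all 7 lines, the interleukin-6, 10 and 12 list was higher in L-540 (0.72) than in HDLM-2 (0.47). IL1R2, the decoy receptor of interleukin-1, was highest in HDLM-2 at 12.06 in HDLM-2, against 3.56 to 11.48 (median 10.66) in the other 6 lines.

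Feedback genes of the pathway were measured beside the kinases. CISH, which STAT5 is known to induce and which dampens interleukin-2 signalling, stood at 10.86 in HDLM-2, against 10.37, 8.99, 8.92, 5.64, 8.09 and 6.91 in the other 6 lines. FCER2, the low-affinity IgE receptor that interleukin-4 and STAT6 induce in B-cells, stood at 9.24 in HDLM-2, against 4.37, 4.36, 8.84, 3.63, 4.72 and 3.59 in the other 6 lines. SOCS1 stood at 8.48 in HDLM-2, against 10.12, 9.21, 7.52, 8.51, 8.83 and 2.87 in the other 6 lines, with the one low value in U-HO1, SOCS2 at 10.09 in HDLM-2, against 5.09 to 10.55 (median 7.84) in the other 6 lines and SOCS3 at 9.32 in HDLM-2, against 4.38 to 10.63 (median 6.99) in the other 6 lines. STAT6 was near the bottom of the lines, at 8.19 in HDLM-2, against 8.53, 9.40, 10.01, 8.14, 8.31 and 9.28 in the other 6 lines, and STAT4 was below background in HDLM-2, at 2.97 in HDLM-2, against 3.25 to 9.15 (median 5.15) in the other 6 lines. STAT5B stood at 9.53 in HDLM-2, against 6.72 to 9.24 (median 7.81) in the other 6 lines, and PTPN2, a phosphatase of JAK kinases, at 8.05 in HDLM-2, against 9.28, 8.64, 7.75, 8.69, 8.04 and 8.10 in the other 6 lines. The 9 JAK and STAT genes had a median of 0.23 and the 17 SOCS genes and phosphatases one of 0.17. At least 2 above the mean were 1 of the 9 and 3 of the 17, beside 4.04% of all genes.

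Promoters are shown for 5 genes that stood at or near the top of the lines in HDLM-2, from the cytokine pathways above and the TNF and checkpoint ligands that follow, because their upstream sequence carries the letters that STAT and NFkB proteins are known to bind. They are the 250 bases before the start site in the RefSeq promoter table for GRCh38.p14, 5′ to 3′ on the strand of the gene. Capitals mark TTCNNNGAA, the spacing shared by STAT proteins, TTCNNNNGAA, the wider spacing preferred by STAT6, and GGGNNTTTCC, an NFkB motif, each searched on both strands. CISH is at chr3:50611775-50612024 on the minus strand, CD274 at chr9:5450292-5450541 on the plus strand, IL4 at chr5:132673739-132673988 on the plus strand, LTA at chr6:31571849-31572098 on the plus strand and LTB at chr6:31582426-31582675 on the minus strand.
CISH: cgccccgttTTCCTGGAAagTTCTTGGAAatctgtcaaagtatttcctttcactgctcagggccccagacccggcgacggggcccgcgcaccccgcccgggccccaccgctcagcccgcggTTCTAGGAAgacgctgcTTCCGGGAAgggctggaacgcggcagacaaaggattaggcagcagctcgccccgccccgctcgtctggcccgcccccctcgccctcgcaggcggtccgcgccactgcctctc
CD274: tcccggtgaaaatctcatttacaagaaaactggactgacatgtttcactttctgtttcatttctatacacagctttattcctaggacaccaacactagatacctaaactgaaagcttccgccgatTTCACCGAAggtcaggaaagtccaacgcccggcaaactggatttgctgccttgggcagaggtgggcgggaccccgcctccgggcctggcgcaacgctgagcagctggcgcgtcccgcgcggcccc
IL4: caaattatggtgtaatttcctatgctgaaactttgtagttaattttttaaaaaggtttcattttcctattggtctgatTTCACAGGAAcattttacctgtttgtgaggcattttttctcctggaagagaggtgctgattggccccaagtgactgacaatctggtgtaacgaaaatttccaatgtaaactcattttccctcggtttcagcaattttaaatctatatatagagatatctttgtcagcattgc
LTA: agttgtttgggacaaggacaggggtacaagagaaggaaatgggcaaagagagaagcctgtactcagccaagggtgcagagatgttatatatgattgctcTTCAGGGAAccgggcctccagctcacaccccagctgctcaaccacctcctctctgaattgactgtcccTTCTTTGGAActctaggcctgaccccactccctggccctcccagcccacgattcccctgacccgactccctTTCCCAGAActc
LTB: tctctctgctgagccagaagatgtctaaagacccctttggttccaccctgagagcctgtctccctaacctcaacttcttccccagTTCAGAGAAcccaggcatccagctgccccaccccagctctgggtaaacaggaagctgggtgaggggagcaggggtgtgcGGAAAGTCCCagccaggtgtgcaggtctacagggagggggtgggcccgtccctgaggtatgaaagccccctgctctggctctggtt
CISH held 4 matches to the first motif, at 241, 230, 129 and 112 bases upstream, CD274 held 1 at 125, LTA held 2 and LTB 1. The wider motif occurred once each in IL4 and LTA, and the NFkB motif once in LTB, 86 bases upstream. Of 27305 promoters in the table, 6.78% held the first motif, 5.35% the wider one and 1.73% the NFkB motif in the same window. The 5 promoters were chosen for holding such letters, so their matches were fixed in advance and cannot be weighed against these shares. A match is a run of letters and says nothing of binding or of levels in these lines.

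The lymphotoxins, TNF-family ligands that organize lymphoid tissue, were both higher in HDLM-2. LTB, whose promoter is printed above, stood at 9.79 in HDLM-2, against 5.38, 4.71, 5.36, 4.73, 5.42 and 5.59 in the other 6 lines, with all other lines near background and HDLM-2 alone far above them. A second LTB probe set gave a difference of 1.06, and HDLM-2 was not above all other lines there. LTA stood at 10.69 in HDLM-2, against 5.90, 8.76, 9.15, 9.31, 8.80 and 7.45 in the other 6 lines, high in most lines and highest in HDLM-2. LST1, the next gene after LTB and chosen here after its value was seen, stood at 8.49 in HDLM-2, against 5.03, 5.33, 5.11, 4.15, 5.68 and 4.01 in the other 6 lines. Of 12 TNF ligands above background in some line, HDLM-2 was highest by at least 1 at LTA and LTB and lowest by at least 1 at CD70, beside 2.01% and 0.662% of all genes, with a median of 0.19. The ligand of CD30, TNFSF8, was above background only in HDLM-2, at 5.29 in HDLM-2, against 4.01 to 4.46 (median 4.19) in the other 6 lines.

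Among the TNF receptors, TNFRSF8, which encodes CD30 and defines HRS cells, stood at 9.47 in HDLM-2, against 10.99, 8.64, 6.13, 7.25, 4.36 and 9.15 in the other 6 lines. TNFRSF9, a costimulatory receptor of activated T-cells, stood at 11.30 in HDLM-2, against 11.32, 7.81, 5.74, 9.63, 8.44 and 5.04 in the other 6 lines, with HDLM-2 and L-540 level at the top. The 23 receptors had a median of 0.02 and only TNFRSF9 was at least 2 above the mean, beside 4.04% of all genes. In the NFkB machinery, TNFAIP3, the A20 inhibitor that is often lost in HL, was lowest in HDLM-2 by a small gap, at 8.57 in HDLM-2, against 10.68, 12.16, 8.99, 9.54, 10.79 and 8.83 in the other 6 lines. REL, an NFkB subunit, stood at 6.23 in HDLM-2, against 6.72 to 10.60 (median 8.89) in the other 6 lines, and TNIP2, a partner of A20, at 6.07 in HDLM-2, against 6.89 to 8.99 (median 7.96) in the other 6 lines. The adaptor TRAF5 was highest, at 8.41 in HDLM-2, against 2.91 to 8.16 (median 7.46) in the other 6 lines. All 27 genes of the NFkB list were above background in HDLM-2, and their median was 0.21.

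Of the chemokines, CCL17, CCL22 and CCL19 were highest in HDLM-2, and CXCL10 and CCL5 were lowest. CCL17, which draws CCR4-positive T-cells to HRS cells, stood at 13.07 in HDLM-2, against 6.64, 11.76, 6.84, 7.34, 9.46 and 10.09 in the other 6 lines. CCL22, a ligand of the same receptor, stood at 7.96 in HDLM-2, against 5.60, 4.65, 5.38, 5.03, 4.98 and 6.52 in the other 6 lines. CCL19, a ligand of CCR7, stood at 8.04 in HDLM-2, against 3.66, 3.28, 5.34, 4.15, 3.06 and 3.73 in the other 6 lines, above background in HDLM-2 alone and at least 9.48-fold higher. HDLM-2 was highest by at least 1 at these 3 of 11 CC chemokines above background in some line, beside 2.01% of all genes. CXCL10, an interferon-induced ligand of CXCR3, was below background in HDLM-2 and above it in 5 other lines, at 3.82 in HDLM-2, against 4.15, 6.31, 10.90, 10.01, 11.55 and 9.37 in the other 6 lines. CCL5 was lowest in HDLM-2, at 6.40 in HDLM-2, against 8.09, 11.57, 7.5, 12.08, 7.94 and 7.27 in the other 6 lines.

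The median was -0.15 over the CC chemokines and -0.29 over 10 CXC chemokines and CX3CL1. Receptors followed no single direction. CCR4 stood at 7.52 in HDLM-2, against 3.38 to 8.51 (median 4.92) in the other 6 lines, CCR7, which guides cells to lymph nodes, at 12.22 in HDLM-2, against 9.34 to 11.64 (median 11.30) in the other 6 lines, and CXCR4, the receptor for CXCL12, at 8.95 in HDLM-2, against 8.98 to 11.36 (median 11.01) in the other 6 lines, a shade below the lowest other line. The 11 chemokine receptors had a median of 0.13.

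The row of genes around JAK2 on the short arm of chromosome 9 was high as a block in HDLM-2. JAK2 stood at 9.44 in HDLM-2, against 6.89, 6.85, 8.46, 6.13, 8.37 and 4.91 in the other 6 lines. CD274, the ligand PD-L1 of the T-cell brake PD-1, stood at 11.28 in HDLM-2, against 8.49, 6.48, 8.36, 6.04, 11.52 and 5.79 in the other 6 lines, with HDLM-2 and SUP-HD1 above the rest. PDCD1LG2, the second ligand PD-L2, stood at 9.33 in HDLM-2, against 5.34, 5.06, 6.20, 4.46, 7.54 and 3.99 in the other 6 lines. HDLM-2 was the highest line for JAK2 and PDCD1LG2 and lay 11.28 beside 11.52 in SUP-HD1 for CD274, whose promoter is printed above.

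Neighbours of other function followed. SLC1A1, a glutamate transporter, stood at 9.49 in HDLM-2, against 7.49, 2.64, 2.74, 6.48, 4.10 and 2.61 in the other 6 lines. VLDLR, the receptor of very low density lipoprotein, stood at 8.69 in HDLM-2, against 2.95, 2.90, 2.67, 2.55, 5.33 and 5.29 in the other 6 lines. SPATA6L had 7.52 in HDLM-2, against 3.17 to 5.10 (median 3.43) in the other 6 lines. AK3, a mitochondrial adenylate kinase named here after its value was seen, had 12.71 in HDLM-2, against a lowest of 9.36 and a median of 10.54 in the other 6 lines, a gap of 1.71 although all lines express it well. RLN2 had 7.74 in HDLM-2, against 2.48 to 5.25 (median 3.70) in the other 6 lines, but it is nearly identical to its neighbour RLN1 and the probes of either may read both.

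Of 23 neighbours of JAK2 above background in some line, HDLM-2 was the highest line for 15, highest by at least 1 for 6 and at least 2 above the mean for 10, and the lowest for none, beside 12.2%, 2.01% and 4.04% of all genes for these 3 counts, with a median difference of 1.85. The 15 measured genes from SLC1A1 to ERMP1, a stretch chosen after the values were seen, had a median of 2.34, with HDLM-2 highest for 12. INSL6 was the one gene within this stretch with a negative difference, -0.59, and it was below background. DNA copy number was not analysed here.

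MHC class II genes, which present antigen to CD4+ T-cells, were highest in HDLM-2 for 11 of 15 members and at least 2 above the mean for 8, beside 12.2% and 4.04% of all genes, and lowest for 1, RFXANK, another subunit of the RFX complex. HLA-DRA stood at 13.41 in HDLM-2, against 10.82, 12.56, 7.18, 12.95, 12.04 and 11.79 in the other 6 lines, with L-1236 far below all others. HLA-DPB1 stood at 12.35 in HDLM-2, against 5.93 to 12.02 (median 9.92) in the other 6 lines, and HLA-DMB, which helps to load peptides, at 10.25 in HDLM-2, against 6.48 to 9.36 (median 7.75) in the other 6 lines. RFXAP, a subunit of the same complex, which binds class II promoters, was highest in HDLM-2 by 2.23, at 8.31 in HDLM-2, against 4.43 to 6.08 (median 5.67) in the other 6 lines. CIITA, the coactivator of the whole class, was within the range of the others, at 5.74 in HDLM-2, against 4.58, 5.52, 4.11, 7.37, 5.21 and 6.25 in the other 6 lines.

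The median difference of the class was 2.13, and 1.495 with L-1236 and U-HO1 left out. HLA-DQA1 went the other way, at 6.19 in HDLM-2, against 4.46 to 11.97 (median 6.24) in the other 6 lines, and probe sets of HLA-DQB1 and HLA-DOA disagreed in size. For HLA-DQB1 the probe sets above background gave differences of 0.58 to 6.23. MHC class I genes had a smaller median of 0.39 over 18 members, none of them at least 2 above or below. Their regulator NLRC5 stood at 5.09 in HDLM-2, against 5.09 to 7.5 (median 6.37) in the other 6 lines, and ERAP1, which trims peptides, at 9.77 in HDLM-2, against 6.59 to 9.34 (median 8.05) in the other 6 lines.

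Ligands that meet T-cells were split. ICAM3 stood at 9.21 in HDLM-2, against 3.82, 8.11, 3.85, 4.15, 3.73 and 4.29 in the other 6 lines and VCAM1, an endothelial adhesion molecule, at 8.29 in HDLM-2, against 3.11, 4.81, 4.43, 7.94, 3.55 and 3.06 in the other 6 lines. CD80, a ligand of CD28 and CTLA4 outside the naming rule, was highest at 9.76 in HDLM-2, against 3.99 to 8.05 (median 7.44) in the other 6 lines. Of 21 such ligands HDLM-2 was at least 2 above the mean at 5 and at least 2 below it at 3, beside 4.04% and 1.75% of all genes, with a median of 0.50. The integrins and selectins had a median of 0.08 over 20 genes. ITGA4, a receptor chain for VCAM1, was below background in HDLM-2, at 3.14 in HDLM-2, against 8.61, 8.77, 8.30, 4.86, 8.80 and 2.87 in the other 6 lines, while the hyaluronan receptor CD44 stood at 9.36 in HDLM-2, against 2.36 to 9.75 (median 7.5) in the other 6 lines.

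Interferon-stimulated genes were on the high side in part, and not in HDLM-2 alone. Set against the mean of all 7 lines, the list median was 0.83 in HDLM-2, 0.68 in L-428 and 0.55 in U-HO1. It was 0.11 in L-540 and negative in the rest. HDLM-2 was highest for 8 of 29, highest by at least 1 for 5 and at least 2 above the mean for 7, beside 12.2%, 2.01% and 4.04% of all genes, with a median difference of 0.96. GBP1, a GTPase of cell defence, stood at 9.16 in HDLM-2, against 5.03, 7.42, 5.20, 6.19, 6.30 and 3.38 in the other 6 lines. USP18, which removes ISG15 and dampens interferon signalling, stood at 8.36 in HDLM-2, against 3.82 to 7.33 (median 6.47) in the other 6 lines. IFI44 was above background in HDLM-2 alone, at 7.22 in HDLM-2, against 2.55 to 5.47 (median 4.10) in the other 6 lines, at least 5.37-fold higher. HERC5, the ligase that attaches ISG15, shared the top with L-540, at 9.34 in HDLM-2, against 2.55 to 9.33 (median 5.85) in the other 6 lines. The 8 interferon regulatory factors had a median of 0.61. IRF2 was highest at 8.31 in HDLM-2, against 5.09 to 8.03 (median 6.94) in the other 6 lines, whereas IRF8, a factor of B- and myeloid cells, was below background at 4.75 in HDLM-2, against 4.46 to 10.03 (median 7.0) in the other 6 lines.

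Among developmental signals, several receptors and ligands were low. MET, the hepatocyte growth factor receptor, was below background in HDLM-2 and clear in all other lines, at 3.39 in HDLM-2, against 8.34, 10.91, 7.61, 7.27, 10.12 and 8.30 in the other 6 lines, at least 14.9-fold lower. HDLM-2 was lowest at 3 of the 4 MET probe sets and next to lowest at the other. AXL, below background in HDLM-2, stood at 2.97 there, against 3.73 to 5.53 (median 4.68) in the other 6 lines, at least 1.06-fold lower. ALK, a kinase of other lymphomas, was below background in HDLM-2 but within the range of the others, at 3.98 in HDLM-2, against 3.46, 3.58, 4.91, 3.36, 4.27 and 4.61 in the other 6 lines. Of 29 receptor tyrosine kinases HDLM-2 was the lowest line for 9 and the highest for 1, beside 11.3% and 12.2% of all genes, with a median of -0.40. Only 13 of the 38 measured kinases were above background in HDLM-2, and the median ran from -0.52 to -0.08 over the settings.

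WNT5A, a ligand of noncanonical WNT signalling, was below background in HDLM-2, at 2.97 in HDLM-2, against 6.68, 6.72, 4.19, 10.85, 6.75 and 10.37 in the other 6 lines, and the receptor gene FZD1 at 2.53 in HDLM-2, against 2.25 to 7.88 (median 5.97) in the other 6 lines. FZD6 was on the other side, at 7.35 in HDLM-2, against 2.45 to 8.27 (median 4.78) in the other 6 lines, and 27 WNT genes had a median of -0.21. JAG1, a Notch ligand, stood at 2.53 in HDLM-2, against 2.46 to 8.92 (median 5.11) in the other 6 lines, and the receptor NOTCH1 at 6.31 in HDLM-2, against 5.90, 5.33, 4.65, 6.99, 6.04 and 8.05 in the other 6 lines. NOTCH4 was on the high side at 7.46 in HDLM-2, against 3.49 to 4.92 (median 4.44) in the other 6 lines, although a second probe set gave a difference of -0.78. The 24 Notch genes had a median of -0.12.

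In the BMP and TGF-beta pathway, TGFBR3 and TGFBR1 were higher and SMAD genes went both ways. TGFBR3, a coreceptor, stood at 10.07 in HDLM-2, against 5.25 to 8.57 (median 6.30) in the other 6 lines, and TGFBR1, the signalling receptor, at 9.84 in HDLM-2, against 5.15 to 8.88 (median 7.60) in the other 6 lines. SMAD7, the inhibitor that TGF-beta induces, stood at 7.56 in HDLM-2, against 2.81 to 7.24 (median 5.83) in the other 6 lines. SMAD1, which carries BMP signals, was below background in HDLM-2, at 3.73 in HDLM-2, against 7.28, 5.15, 6.66, 6.99, 7.48 and 7.69 in the other 6 lines. SMAD9 was on the other side, at 8.05 in HDLM-2, against 3.24 to 8.90 (median 4.58) in the other 6 lines. Over 32 genes the median was 0.29, with HDLM-2 highest for 8, beside 12.2% of all genes.

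Homeobox genes, the class the study was about, showed single members apart from the rest. NKX2-2 was below background in all 7 lines, at 2.97 in HDLM-2, against 3.03, 2.90, 2.97, 2.91, 2.73 and 2.67 in the other 6 lines. MSX1 stood at 4.06 in HDLM-2, against 3.11, 5.15, 4.77, 7.52, 5.91 and 3.32 in the other 6 lines, and HLX at 4.69 in HDLM-2, against 8.96, 4.16, 5.05, 4.15, 3.82 and 3.96 in the other 6 lines, with L-540 alone above background. The 21 NKL genes had a median of -0.34, none at least 2 from the mean. In the HOXC cluster, HOXC9 stood at 8.78 in HDLM-2, against 3.73, 4.10, 3.66, 7.75, 3.63 and 3.90 in the other 6 lines and HOXC6 at 9.99 in HDLM-2, against 4.08, 3.90, 7.10, 9.70, 6.42 and 8.70 in the other 6 lines, with KM-H2 next to HDLM-2 in both. HOXC10 stood at 6.16 in HDLM-2, against 3.55 to 4.73 (median 3.94) in the other 6 lines. HOX genes specify position along the body axis, and 24 of them had a median of 0.15.

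IRX3, a TALE homeobox gene, was above background in HDLM-2 alone, at 7.27 in HDLM-2, against 2.52, 2.64, 2.82, 2.37, 2.65 and 3.99 in the other 6 lines, at least 5.56-fold higher. MEIS1, a cofactor of HOX proteins, was below background there, at 2.61 in HDLM-2, against 2.65 to 7.84 (median 5.29) in the other 6 lines. The 28 genes of the TALE, LIM, POU and related classes had a median of -0.30. Of the 8 network genes of NKX2-2 in the study the median was 0.12, and of 6 TLE corepressors it was 0.06. MSC, a repressor of B-cell E proteins in HL, stood at 9.32 in HDLM-2, against 7.52, 8.03, 5.03, 6.94, 9.10 and 7.33 in the other 6 lines, ID2, an inhibitor of the same proteins, at 11.73 in HDLM-2, against 11.57, 8.73, 10.81, 11.62, 12.23 and 11.31 in the other 6 lines, and the E protein TCF4 at 11.55 in HDLM-2, against 7.77 to 10.60 (median 9.83) in the other 6 lines. The 12 genes of this family had a median of 0.42, and 12 AP-1 and ATF factors one of 0.56.

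Calcium-binding and membrane proteins included several of the widest differences. LGALS3, a galectin, stood at 12.11 in HDLM-2, against 9.48, 10.81, 3.97, 3.36, 10.48 and 3.28 in the other 6 lines. LGALS1, the galectin by which HRS cells restrain T-cells, was high in all lines, at 13.14 in HDLM-2, against 12.93, 12.38, 10.44, 12.27, 12.45 and 12.61 in the other 6 lines. S100A6 stood at 11.48 in HDLM-2, against 11.26, 10.38, 3.82, 3.73, 3.92 and 9.57 in the other 6 lines and S100A11 at 10.29 in HDLM-2, against 10.73, 9.63, 4.77, 7.93, 3.35 and 3.17 in the other 6 lines, so that both were high in HDLM-2, L-540 and L-428. TSPAN7 stood at 9.32 in HDLM-2, against 3.20 to 8.22 (median 4.88) in the other 6 lines while TSPAN13 stood at 3.73 in HDLM-2, against 5.09 to 8.85 (median 7.72) in the other 6 lines. HDLM-2 was highest for 9 of 26 tetraspanins and galectins, beside 12.2% of all genes, with a median of 0.61, and the 12 S100 genes had a median of 0.25. ADAM19, a sheddase, stood at 8.37 in HDLM-2, against 3.15 to 5.89 (median 3.96) in the other 6 lines, and 19 proteinase and inhibitor genes of its list had a median of 0.01. FSCN1, the actin-bundling marker of HRS cells, stood at 8.31 in HDLM-2, against 8.73, 12.10, 10.01, 10.61, 9.46 and 5.72 in the other 6 lines.

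Enzymes of tryptophan use were not high together. Beside TDO2, IL4I1, a phenylalanine and tryptophan oxidase of lymphoid cells, was highest in HDLM-2 at 9.48 in HDLM-2, against 7.43 to 8.37 (median 8.04) in the other 6 lines. IDO1, which starts the same pathway as TDO2 in immune cells, was below background at 3.56 in HDLM-2, against 3.66 to 7.62 (median 4.86) in the other 6 lines, and KYNU, an enzyme further down, was so at 4.36 in HDLM-2, against 4.43 to 8.34 (median 6.15) in the other 6 lines. The median over 14 genes was -0.49. Over 22 hypoxia and glycolysis genes it was 0.02, with ALDOC, an aldolase, at 11.18 in HDLM-2, against 3.92 to 11.67 (median 6.27) in the other 6 lines. Over 7 genes of interleukin-17 signalling it was -0.45, with the adaptor TRAF3IP2 at 7.99 in HDLM-2, against 3.73 to 7.0 (median 3.86) in the other 6 lines.

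MAGE and other cancer-testis antigens, normally confined to germ cells, were mostly below background. Of 13 such genes above background in some line, 1 was above background in HDLM-2. HDLM-2 was highest for none, beside 12.2% of all genes, and the median difference was -1.54. The low median was not particular to HDLM-2. Set against the mean of all 7 lines, it was -1.32 in HDLM-2, -1.31 in L-540 and -1.11 in SUP-HD1. It was also negative in L-428 and L-1236, and positive only in U-HO1 and KM-H2, with KM-H2 far above the rest. MAGEB2 stood at 2.81 in HDLM-2, against 3.11, 9.48, 9.11, 10.70, 2.65 and 9.25 in the other 6 lines and MAGEA4 at 2.53 in HDLM-2, against 3.38, 2.70, 3.38, 11.41, 2.73 and 10.74 in the other 6 lines. KM-H2 was highest for both, and the median of the list shrank to -0.77 against the median of the 6 lines in place of their mean.

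Among growth and survival genes, the p53 pathway was on the low side. Its 20 genes had a median of -0.64, and HDLM-2 was the lowest line for 4 and the highest for 1, beside 11.3% and 12.2% of all genes. This was not particular to HDLM-2. Set against the mean of all 7 lines, the list median was -0.79 in L-1236, -0.55 in HDLM-2 and -0.31 in L-428, and positive in the rest. SESN1, a stress-response gene induced by p53, stood at 4.75 in HDLM-2, against 5.79, 5.52, 5.60, 7.25, 6.82 and 6.56 in the other 6 lines, lowest and below background in HDLM-2. TP53INP1, another target of p53, stood at 2.81 in HDLM-2, against 2.87 to 8.97 (median 4.56) in the other 6 lines, and MDM4, an inhibitor of p53, at 7.63 in HDLM-2, against 7.71 to 9.79 (median 9.16) in the other 6 lines. AEN, a nuclease of apoptosis, stood at 5.94 in HDLM-2, against 6.10 to 8.17 (median 7.37) in the other 6 lines. PMAIP1, the death gene NOXA, stood at 8.39 in HDLM-2, against 8.37 to 11.37 (median 9.82) in the other 6 lines.

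The 26 genes of DNA replication and mitosis had a median of 0.01, with CDC20, an activator of mitotic exit, at 7.19 in HDLM-2, against 3.45 to 6.29 (median 5.35) in the other 6 lines and MCM4, a replication helicase subunit, at 7.12 in HDLM-2, against 7.64 to 10.34 (median 8.85) in the other 6 lines. The 20 D cyclins, CDK inhibitors and partners of RB1 had -0.00 and the 17 BCL2 genes -0.20. CDKN2A, which encodes inhibitors of CDK4 and MDM2, stood at 10.22 in HDLM-2, against 4.15 to 11.22 (median 7.89) in the other 6 lines. BCL2A1, a survival gene under NFkB, stood at 5.04 in HDLM-2, against 4.65 to 11.24 (median 8.0) in the other 6 lines. The 14 genes that every cell uses had 0.12, with TFRC at 1.61 and SDHA at 1.57 as their widest differences. The 11 cytotoxic and NK-cell genes had -0.30, which was 0.44 without L-540, and the 15 HRS-cell genes 0.96.

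**Figure D3:**
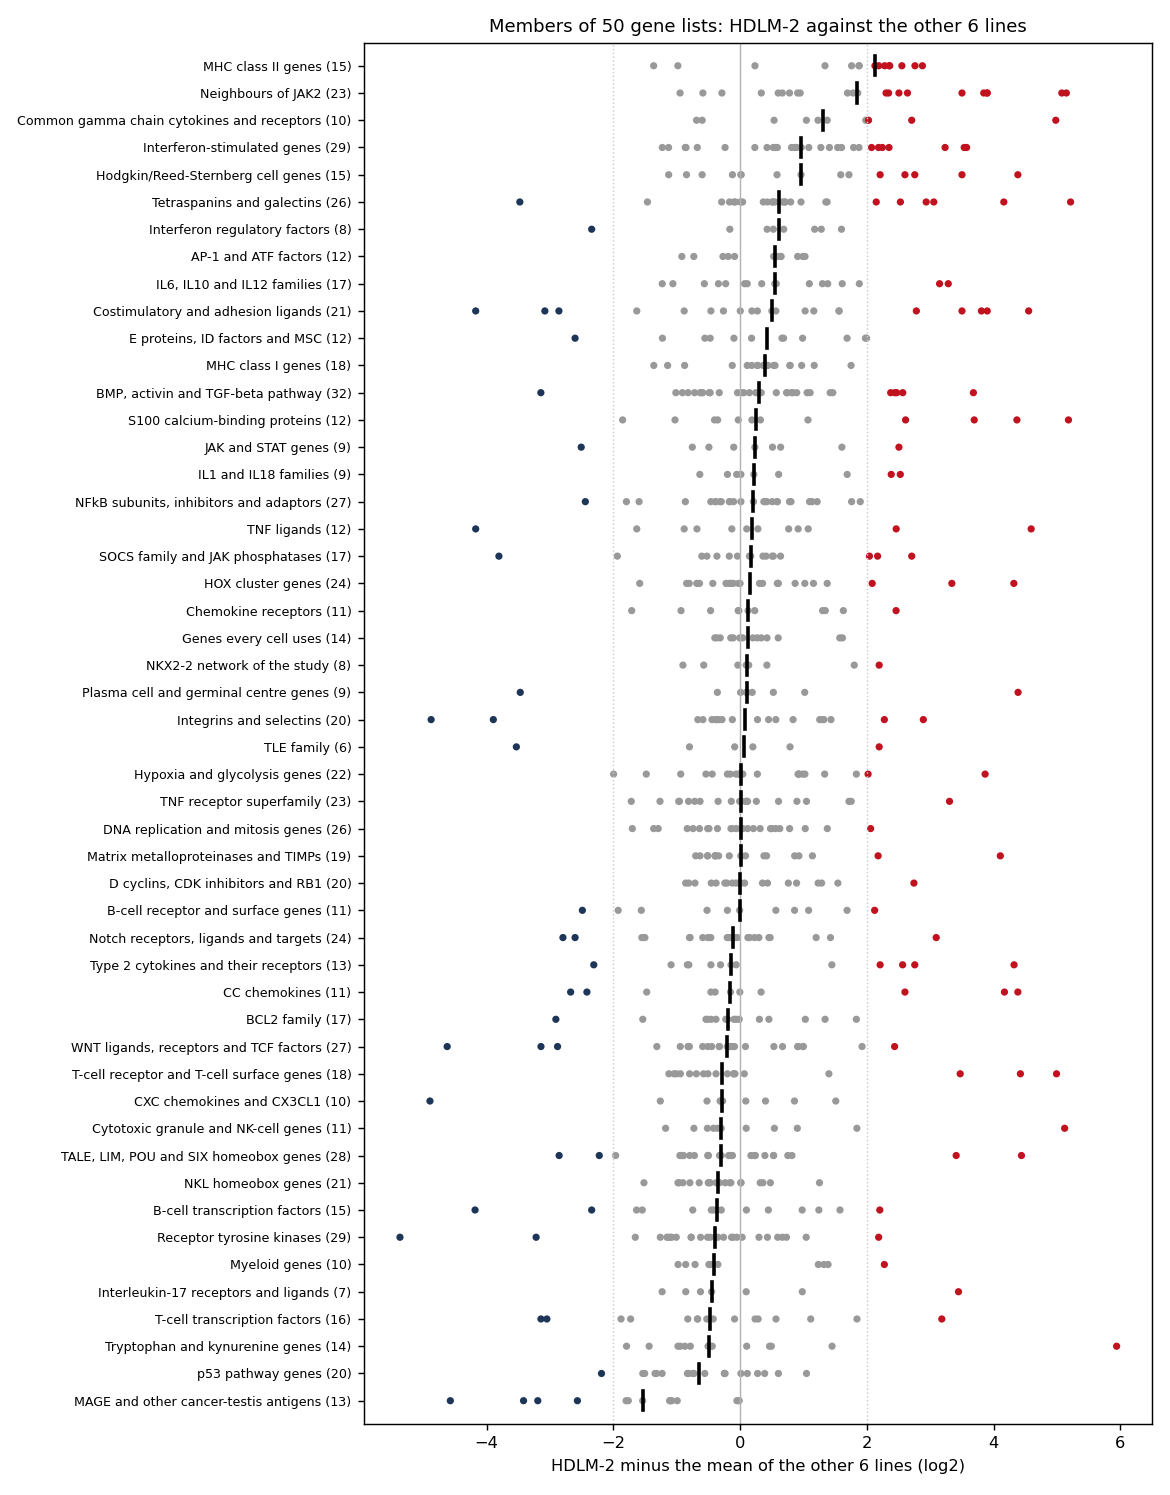
Difference between HDLM-2 and the mean of the other 6 lines on the log2 scale (horizontal axis) for the members of 50 gene lists, 1 point for each gene above background in at least 1 line, their number in brackets. Black bars are list medians, red and blue points are at least 2 above or below, and the medians run from 2.13 for MHC class II to -1.54 for the MAGE list.

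A second block of neighbours stood out on chromosome 19, where a long row of zinc finger genes, which encode DNA-binding repressors, lies side by side. Over 21 neighbouring measured genes centred on ZNF345, a window chosen after the data were seen, the median difference was 2.08. The 18 zinc finger genes of this window had a median of 2.12, and HDLM-2 was highest for 11, highest by at least 1 for 5 and at least 2 above the mean for 11, beside 12.2%, 2.01% and 4.04% of all genes. In HDLM-2, 16 of the 18 were above background, against 3 to 12 in the other lines, with 12 in U-HO1. ZNF540, ZNF569, ZNF571 and ZNF585B were above background in HDLM-2 alone. They were counted only through HDLM-2, so the 3 counts describe the row and support nothing further. All 351 genes named ZNF or ZFP had a median of -0.08, and the same 3 counts over them were 40, 14 and 21.

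ZNF585A stood at 7.60 in HDLM-2, against 3.46, 3.43, 4.05, 5.56, 3.35 and 6.49 in the other 6 lines, and its near copy ZNF585B at 5.43 in HDLM-2, against 2.41, 3.04, 2.90, 2.76, 2.65 and 2.58 in the other 6 lines, and the probes of either may read both. ZNF571 stood at 5.43 in HDLM-2, against 2.52, 2.64, 2.74, 2.83, 2.32 and 3.90 in the other 6 lines and ZNF569 at 5.71 in HDLM-2, against 2.80, 2.52, 3.85, 4.6, 2.81 and 2.64 in the other 6 lines, and with ZNF540 at 5.15 in HDLM-2, against 2.97 to 3.91 (median 3.55) in the other 6 lines they formed the only run of 3 neighbours that were each highest in HDLM-2 by at least 1. Levels in this row were low, and the median of the 18 was 0.89 once values below background were raised to background. The only run of 3 neighbours each lowest by at least 1 was SLC39A3 at 4.06 in HDLM-2, against 5.38 to 7.80 (median 7.21) in the other 6 lines, SGTA at 4.93 in HDLM-2, against 6.52 to 7.39 (median 7.12) in the other 6 lines and THOP1 at 3.56 in HDLM-2, against 5.36 to 7.59 (median 6.81) in the other 6 lines. Among promoters of the 17 zinc finger genes that have one in the RefSeq table, the median number of CG dinucleotides was 19, against 11 over all 27305.

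**Figure D4:**
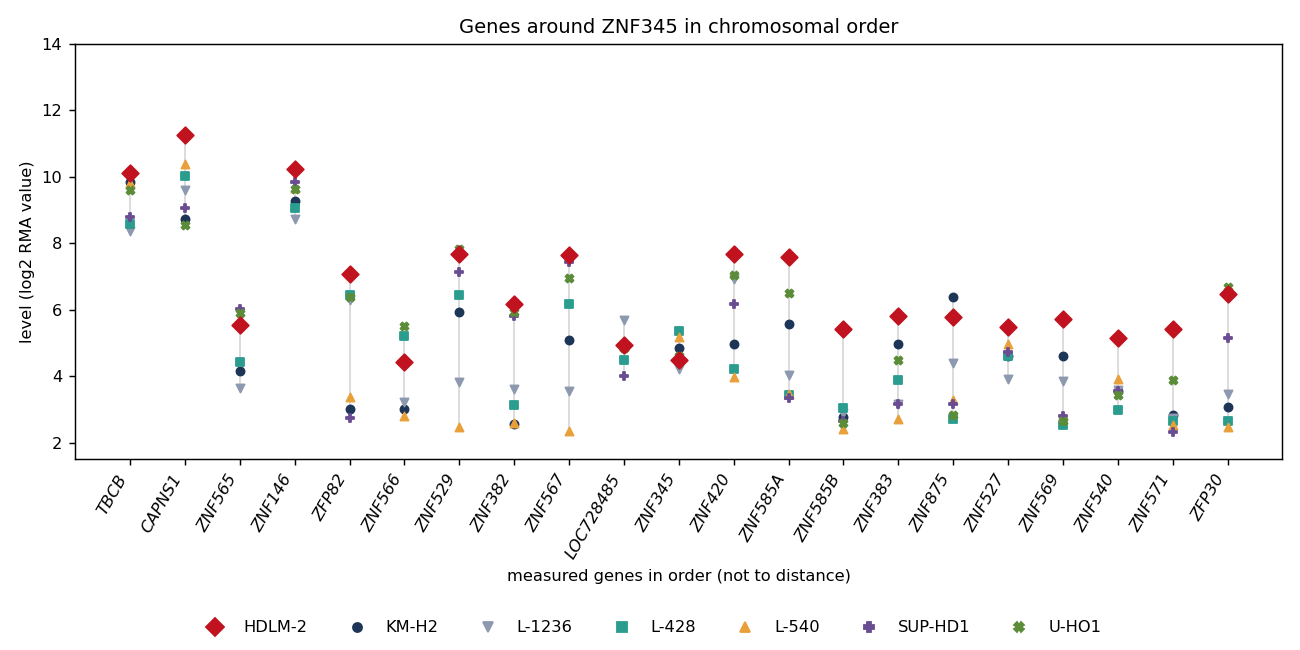
Levels on the log2 scale (vertical axis) of measured genes around ZNF345 in chromosomal order, not to distance, 1 point for each of the 7 lines. HDLM-2 is above background at 16 of the 18 zinc finger genes and U-HO1 at 12.

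Of the other lines, L-540 was the most like HDLM-2. Pearson's r with HDLM-2 across the 14495 genes, which share their array and are not replicates, was 0.83 for L-540, 0.82 for L-428 and SUP-HD1, 0.79 for U-HO1, 0.78 for KM-H2 and 0.74 for L-1236. L-540 was the nearest line for 2680 genes (18.5%) and L-1236 for 1929 (13.3%). HDLM-2 and L-540 were both at least 2 above the mean of the remaining 5 for 166 genes, against 142 for the pair with SUP-HD1 and 52 to 127 for the other pairs. CD247, PRF1, IL2RA, IL26, TNFRSF9, S100A11 and HERC5, given above, were all high in both HDLM-2 and L-540. Some were high elsewhere too, IL2RA (9.80) and IL26 (9.39) in SUP-HD1, S100A11 (9.63) in L-428 and HERC5 (8.10) in U-HO1. Other genes split HDLM-2 from L-540, such as GZMB (4.75 and 12.01), IL13RA1 (10.16 and 3.20) and PTPRC (2.97 and 9.57).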

How the data were processed

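RNA of 7 HL cell lines was hybridized to Affymetrix HG-U133 Plus 2.0 arrays, 1 array per line. The deposited values are log2 intensities that the authors made by RMA, which corrects background, quantile-normalizes the arrays and summarizes probes into probe sets. RMA, limma and affy are named in the submitters' processing notes, with versions not given in the sources used here. In all, there were 54675 probe sets without missing values, with a range of 1.99 to 14.17. Of these, 41097 had 1 gene symbol in the platform annotation, 1801 had several and 11777 had none. Symbols of 41043 probe sets were matched to the RefSeq gene table for GRCh38.p14.

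From there, Python 3.11.15, numpy 2.4.6, pandas 2.3.3 and matplotlib 3.10.9 were used to take HDLM-2 minus the mean of the other 6 lines and the gap to the nearest line. The computation was tested on simulated data. Lines were not tested against each other, and 1 array per line limits the precision. Thresholds were a gap of 1 and a difference of 2. Named were the 20 genes farthest apart on each side with all probe sets above background in accord, up to 5 members of each of 50 gene lists with the widest differences, 36 measured genes named whatever their value, and runs of 3 neighbours. The line, the lists and the genes were chosen with earlier results of these data known. Alternatives were the choice of probe set, the normalization, the background, the thresholds and the lines compared. Windows of 21 genes, pairs of neighbours and the 2 gene rows were added after seeing the data. IL9 and some other list members were not analysed here.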

Additional observations from a re-analysis of the deposited data

Results flagged for a closer look

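In 95 sets of 7 values (genes always named, lists and array measures), the extreme line was set against the others with Dixon's criterion, which chance meets in about 1 of 20 sets of replicates. The 7 lines are different cultures and not replicates, so a mark says only that 1 line lay far from the rest. The criterion was met 18 times and never by HDLM-2. Among genes, GZMB was far above the other lines in L-540 (12.01, with HDLM-2 next at 4.75), HLX in L-540 (8.96, HDLM-2 at 4.69) and IL5 in L-428 (7.18, HDLM-2 at 2.97). On the low side stood SOCS1 in U-HO1 (2.87, HDLM-2 at 8.48), ID2 in L-428 (8.73, HDLM-2 at 11.73), LGALS1 in L-1236 (10.44, HDLM-2 at 13.14) and HLA-DRA in L-1236 (7.18, HDLM-2 at 13.41).

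For gene lists the value is the median over members of the line's level minus the mean of all 7 lines. L-540 was far above the rest for cytotoxic granule and NK-cell genes (1.56, HDLM-2 at -0.26) and for integrins and selectins (0.78, HDLM-2 at 0.06). KM-H2 was so for B-cell receptor and surface genes (0.72, HDLM-2 at -0.01) and for MAGE and other cancer-testis antigens (4.3, HDLM-2 at -1.32), and L-428 for tryptophan and kynurenine genes (0.46, HDLM-2 at -0.42). U-HO1 was far below for the IL1 and IL18 families (-1.22, HDLM-2 at 0.18), and L-1236 for genes that every cell uses (-0.33, HDLM-2 at 0.10).

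Among array measures, U-HO1 stood apart for 18S rRNA (11.12, HDLM-2 at 5.86) and for the difference between 3' and 5' probe sets of ACTB (2.11, HDLM-2 at 0.54). L-1236 stood apart for its background level (5.59, HDLM-2 at 4.86) and for its number of genes above background (8609, HDLM-2 at 10554). Their part in the results was not tested beyond leaving out these lines.

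Of 13522 probe sets with no gene symbol or several, which entered no comparison, 6561 were above background in at least 1 line. HDLM-2 was highest by at least 1 at 135 of them, or 2.06%, and lowest by at least 1 at 24, or 0.366%.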

How the results depend on the processing

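No paired analysis was possible because there is only 1 array for every line. The count of genes highest in HDLM-2 by at least 1 (291) was 82 with a gap of 2 and 466 with L-1236 and U-HO1 left out together, and 339 to 426 with 1 line left out. The count lowest by at least 1 (96) was 62 when a gene was the mean over its probe sets, 50 with values below background raised to it, 21 with a gap of 2, 243 with L-1236 and U-HO1 left out, and 112 to 178 with 1 line left out. A gap to fewer lines is easier to reach by construction. The count at least 2 above the mean (586) was 359 with background raised, 217 with a difference of 3, and 572 to 629 with 1 line left out. The count at least 2 below (253) was 151 with the mean of all probe sets, 103 with background raised, 85 with a difference of 3, and 252 to 301 with 1 line left out. Repeated quantile normalization moved the median of all genes by -0.10 and kept 258 of the 291 genes.

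Of 50 list medians, 22 changed sign under at least 1 alternative, all with a size of 0.41 or less as reported, so no direction is drawn from these, and 28 kept their sign. Of 700 list medians under alternatives, 7 moved by more than 1 SD between probe sets of a gene, a wide bound for a median. These were cytotoxic granule and NK-cell genes (0.29 with the mean of all probe sets, 0.44 without L-540, -0.48 to 0.44 with each line left out), HRS-cell genes (1.59 without probe sets ending in _x_at or _s_at), myeloid genes (0.28 against the median of the 6 lines), MAGE genes (-0.77 against that median, -0.88 with background raised) and MHC class II genes (1.495 without L-1236 and U-HO1). Of 4023 values of single genes, 3464 moved by less than that spread and 557 by more. A turn of sign was counted only for genes at least 2 from the mean as reported, and it occurred for 2 values. These were ITGAM, at -0.78 without probe sets ending in _x_at or _s_at, and NOTCH4, at -0.86 after repeated quantile normalization. In that setting the probe set of each gene was chosen anew, and the second NOTCH4 probe set was already negative as reported. Genes with smaller differences changed sign too and were not counted. Examples are FOSL2 (-0.96 to 1.65 over the settings), SOCS1 (-0.69 to 1.09) and GZMB (-1.30 to 0.95). The cause of these changes was not tested. The median of the 18 zinc finger genes was 0.89 with background raised, since several are near it.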

Other observations

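Rows of neighbouring genes were also searched across all chromosomes in 13980 overlapping windows of 21 measured genes, a search added after seeing the data. The median difference between HDLM-2 and the mean of the other 6 lines was 1 or more in 117 windows and -1 or less in 5. After the windows around PLPP6 in the row of JAK2 (2.30), ZNF345 (2.08) and TAP2 in the MHC region (1.76), the highest were both on chromosome 13, around BIVM (1.22) and around RB1 (1.19). HDLM-2 was the highest line for 8 of the 21 genes around BIVM and 9 of the 21 around RB1, beside 12.2% of all genes.

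The lowest window, around MORF4L2 on the X chromosome, had a median of -1.28. It holds the BEX and TCEAL genes, small proteins named for brain expression and for likeness to an elongation factor, and 8 of its 21 genes were at least 2 lower in HDLM-2, beside 1.75% of all genes. BEX3 stood at 3.14 in HDLM-2, against 3.91, 4.29, 11.16, 3.73, 4.01 and 12.34 in the other 6 lines, and TCEAL8 at 2.31 in HDLM-2, against 2.46, 8.10, 4.61, 8.73, 8.35 and 7.14 in the other 6 lines, both named after their values were seen. HDLM-2 was below background for both.

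Pairs of neighbours that were each highest in HDLM-2 by at least 1 included members of the 20 genes farthest above. TDO2 was followed by CTSO, a lysosomal protease, at 7.39 in HDLM-2, against 2.76 to 6.14 (median 4.57) in the other 6 lines. CLDN14 lay next to SIM2, a developmental transcription factor, at 6.31 in HDLM-2, against 3.04 to 4.91 (median 3.93) in the other 6 lines, and GPR158 next to GAD2, a glutamate decarboxylase of neurons, at 6.11 in HDLM-2, against 4.15 to 4.93 (median 4.50) in the other 6 lines. These 3 neighbours were named after their values were seen.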
